A study of Bos taurus with 6 samples.

Results

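The hepatocyte miRNAs bta-miR-122, bta-miR-192, bta-miR-194 and bta-miR-215 were examined in the liver small RNA libraries of grass-fed and grain-fed cattle. They were taken by name from the count table of each library, 4 of 1030 listed mature miRNAs, and all 4 were among the 456 miRNAs detected, that is, counted more than 2 times in 2 or more libraries. Each library came from the left liver lobe of 1 Wye Angus steer, from a herd closed to outside breeding. The grass-fed group held 3 steers aged 21 months on alfalfa, hay or pasture, and the grain-fed group held 3 steers aged 14 months on corn silage, shelled corn, soybean and minerals, both sampled at market weight. Age and diet therefore cannot be told apart. Steers are numbered 1 to 3 within a group by the replicate number of their label, and values are given in that order. The largest read count over the precursors listed for a mature miRNA was used as its count in that library.

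miR-122 is the miRNA for which hepatocytes are best known. Its gene is switched on by liver-enriched transcription factors, and it holds down many messages that hepatocytes do not use while supporting cholesterol and fatty acid metabolism. miR-192 and miR-215 have the same seed, the stretch near the 5′ end that pairs with targets, and are known for restraint of the cell cycle and as responders to p53. miR-194 has another seed, is made from the same primary transcripts as miR-192 and miR-215, and is known as an epithelial miRNA. The miR-192, miR-194 and miR-215 group is abundant in intestine and kidney as well as in liver, so its members do not mark hepatocytes alone.

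The members come from 5 precursor genes. In the RefSeq gene table for ARS-UCD2.0 (the authors used the earlier ARS-UCD1.2), MIR192 lies beside MIR194-2, within the span of EHD1, and MIR215 lies beside MIR194-1, within the span of IARS2. MIR122 overlaps no other listed gene. Mature bta-miR-194 can thus come from either locus, whereas bta-miR-192 and bta-miR-215 each mark 1 of them. The mature sequences of miR-192 and miR-215 are closely alike, and how reads that fit both were divided depends on a mismatch setting not given in the sources used here. Reads of the entries bta-miR-194b and bta-miR-194b-3p, whose genes overlap those of bta-miR-194, never exceeded 1 count in a library.

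Grass-fed libraries held 3824592 to 6133960 miRNA counts and grain-fed libraries 464875 to 892929, so the number of miRNA counts also separates the groups. The authors report nearly equal numbers of raw reads for the groups, but fewer clean reads and a lower mapped share in the grain-fed group. The gap therefore arose after the raw reads, and these counts do not show how much of it belongs to each step. Its cause was not tested. The members were deep in every library all the same. The lowest count of any member was 524, for bta-miR-215 in grain-fed steer 3, where counting error alone was 4.37% of the value. For bta-miR-122, bta-miR-192 and bta-miR-194 counting error did not exceed 1.10% in any library. Intervals and errors of this kind cover counting only, since amplified reads without molecular identifiers are not independent molecules. Levels below are CPM, counts per 1e6 of the library after TMM scaling, which assumes most miRNAs to be equal between libraries. Because a read covers the whole length of a miRNA, these levels need no correction for length.

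bta-miR-122 and bta-miR-192 exceeded their grain-fed level in grass-fed liver, by 2.17-fold and 1.57-fold, while neither bta-miR-194 nor bta-miR-215 passed the test. Thus 2 of the 4 members passed at FDR 0.1 (quasi-likelihood test of edgeR), both higher in the grass-fed group, beside 19.1% of all tested miRNAs called and 9.43% called higher. In the same 2 members the diets had separate CPM ranges, as in 32.9% of all tested miRNAs. The median log2 fold change of the 4 members was 0.25, against 0.13 over all tested miRNAs.

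bta-miR-122 had 280506, 457525 and 297653 CPM in grass-fed steers and 160591, 194422 and 122849 CPM in grain-fed steers 1 to 3. Every grass-fed library lay above every grain-fed library, and grass-fed steer 2 stood highest. In bulk tissue, a lower share of hepatocytes cannot be told apart from less of the miRNA in each hepatocyte. The group means were 345228 ± 97629 and 159287 ± 35804 CPM (SD, n = 3 each), and the log2 fold change was 1.12 (SE 0.22) at FDR = 0.00419 in edgeR, Benjamini-Hochberg adjusted over all tested miRNAs. As a share of all miRNA counts, which uses no scaling factor, bta-miR-122 took 26.2%, 31.7% and 29.7% in grass-fed steers and 18.5%, 21.6% and 14.9% in grain-fed steers 1 to 3. The Wilson 95% interval of the shallowest library, grain-fed steer 3, ran from 14.8% to 15.0%, so the gap between the diets is far wider than counting error. It was the most abundant miRNA in 5 of the 6 libraries. In grain-fed steer 3 it came second, with 69244 counts, after bta-miR-148a with 76955.

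bta-miR-192 had 71960, 81743 and 64020 CPM in grass-fed steers and 40576, 44213 and 54248 CPM in grain-fed steers 1 to 3. The groups did not overlap, and grain-fed steer 3 came nearest to the grass-fed animals. Its log2 fold change was 0.65 (SE 0.18, FDR = 0.0286, edgeR). The call was lost without grain-fed steer 1 (log2 fold change 0.50, FDR = 0.138, edgeR) and without grain-fed steer 2 (0.53, FDR = 0.161, edgeR). By share of counts the groups overlapped, with 5.65% to 6.73% in grass-fed and 4.67% to 6.58% in grain-fed liver.

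bta-miR-194 had 11565, 6624 and 11245 CPM in grass-fed steers and 9793, 15265 and 14575 CPM in grain-fed steers 1 to 3. Grass-fed steer 2, highest for bta-miR-122, was lowest for bta-miR-194, and grain-fed steer 1 lay within the grass-fed range. The log2 fold change was -0.43 (SE 0.25, FDR = 0.300, edgeR), and it ran from -0.64 without grain-fed steer 1 to -0.21 without grass-fed steer 2. With total counts it was -0.79 (FDR = 0.124, edgeR), and it was not called in any of these. Mean levels were 9811 ± 2765 and 13211 ± 2980 CPM (SD, n = 3 each).

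bta-miR-215 was the least abundant member. It had 766, 753 and 754 CPM in grass-fed steers and 638, 949 and 930 CPM in grain-fed steers 1 to 3. The grass-fed animals were almost level, and the grain-fed animals lay on both sides of them. It differed by -0.14 on the log2 scale (SE 0.22, FDR = 0.753, edgeR), and upper-quartile scaling turned it to 0.05. It was -0.55 with total counts (FDR = 0.191, edgeR) and -0.36 without grain-fed steer 1 (FDR = 0.371, edgeR), so its size and sign rest on these choices and it was not called in any of them.

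**Figure D1:**
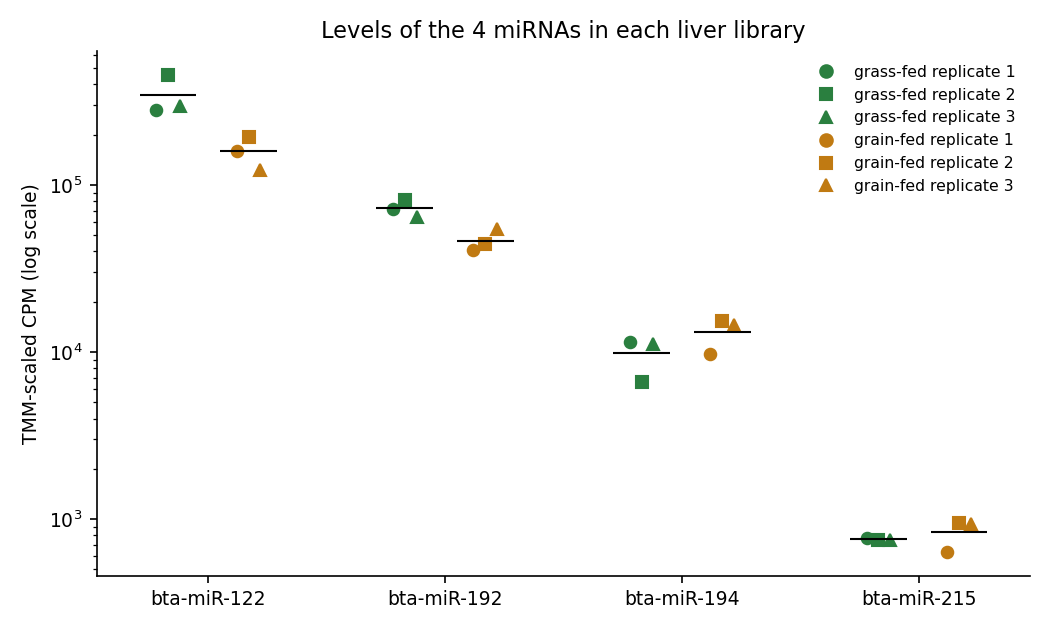
TMM-scaled CPM of the 4 miRNAs on a log axis, 1 point per library, with a bar at each group mean (n = 3). bta-miR-122 and bta-miR-192 have separate grass-fed and grain-fed points, and the points of bta-miR-194 and bta-miR-215 overlap between the diets.

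**Figure D2:**
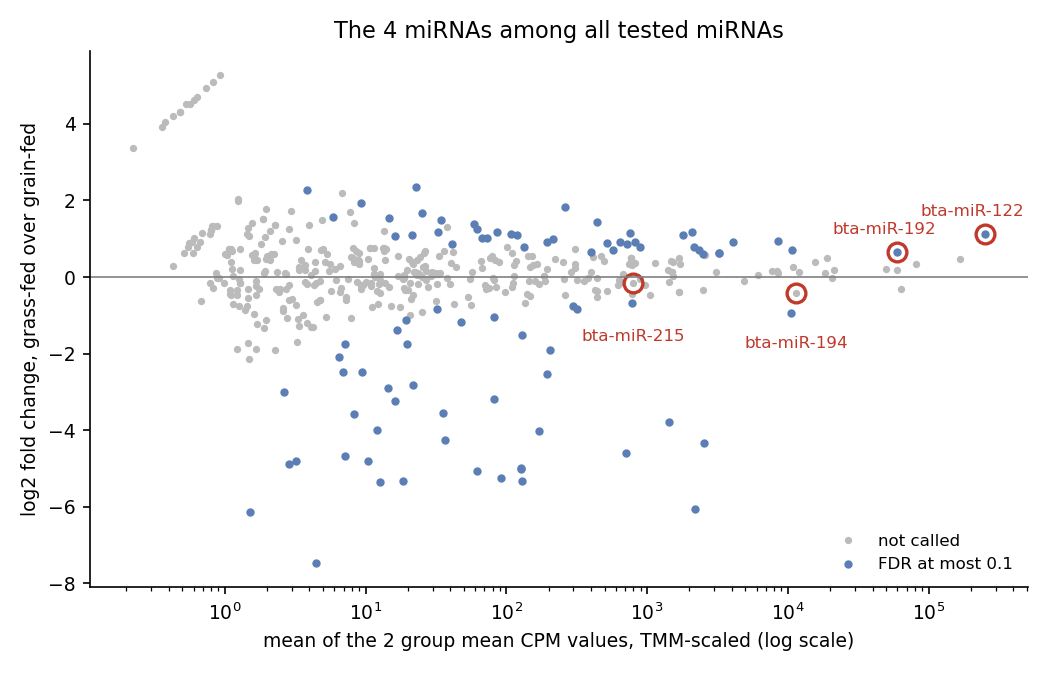
log2 fold change of grass-fed over grain-fed liver against the mean of the group mean CPM values (log axis) for the 456 tested miRNAs, with those at FDR of at most 0.1 in blue and the 4 members circled. bta-miR-122 and bta-miR-192 are called and lie above 0, while bta-miR-194 and bta-miR-215 are not called and lie just below it.

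The order of levels was the same in all 6 libraries, with bta-miR-122 above bta-miR-192, bta-miR-192 above bta-miR-194 and bta-miR-194 above bta-miR-215. The smallest step between neighbours was 2.26-fold for bta-miR-122 over bta-miR-192, 2.90-fold for bta-miR-192 over bta-miR-194 and 8.80-fold for bta-miR-194 over bta-miR-215. Over all detected miRNAs the members ranked 1, 5, 14 and 56 by mean CPM of the groups. Together they made up 34.1% to 37.8% of the counts in grass-fed and 23.4% to 28.3% in grain-fed libraries, most of it bta-miR-122.

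Scaling moved the members together. Over all tested miRNAs the median log2 fold change was 0.13 with TMM, -0.29 with total counts and 0.31 after upper-quartile scaling. Against that median, bta-miR-122 lay 0.98 higher after TMM, 0.96 higher with total counts and 0.96 higher after upper-quartile scaling. bta-miR-192 lay 0.51, 0.50 and 0.52 higher in the same order. bta-miR-194 lay below the median, at -0.56, -0.50 and -0.53, and bta-miR-215 at -0.28, -0.26 and -0.26. A change of scaling shifts every miRNA by nearly the same amount, so position among the other miRNAs could hardly have changed. It is no separate support for the differences. The calls did change. With total counts 16.2% of miRNAs were called and 1.97% were called higher. There bta-miR-122 stayed called (log2 fold change 0.67, FDR = 0.00879, edgeR) and bta-miR-192 did not (0.22, FDR = 0.469, edgeR). Leaving the members out of the TMM calculation gave 1.05 for bta-miR-122 and 0.59 for bta-miR-192, and both were called in that fit.

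**Figure D3:**
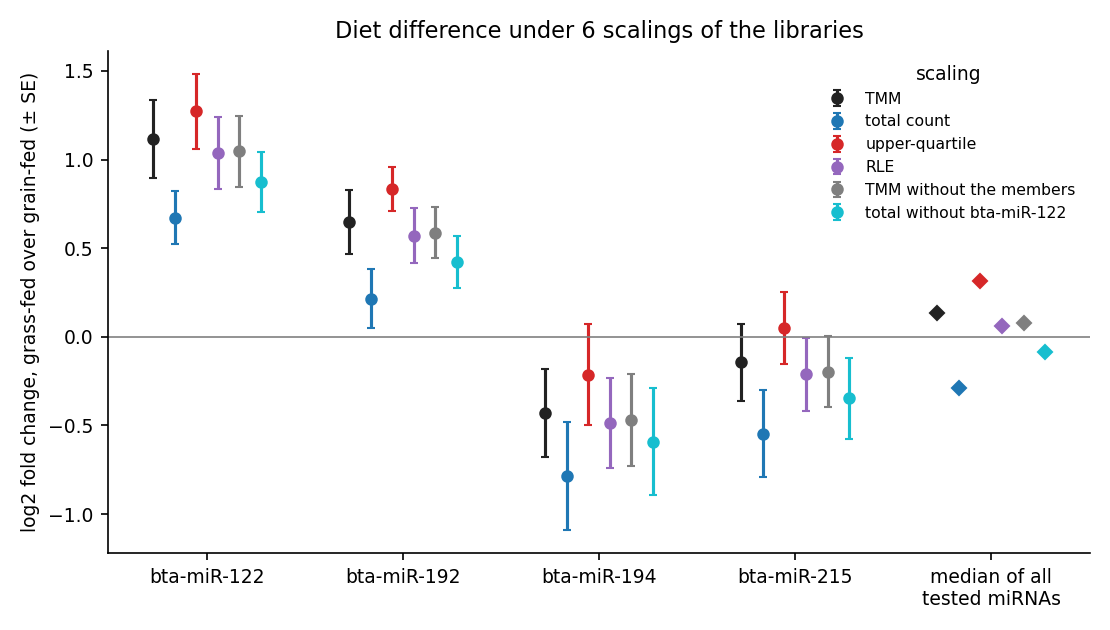
log2 fold change of grass-fed over grain-fed liver, with its SE, for each member under 6 scalings, and at the right the median over all tested miRNAs under each scaling (diamonds). The members shift up or down with that median and keep their order, bta-miR-122 highest and bta-miR-194 lowest. This follows from scaling itself, which shifts every miRNA by nearly the same amount.

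Ratios of 2 members counted in the same library do not depend on any scaling. In 5 of the 6 pairs the ratio ranges did not overlap between grass-fed and grain-fed liver, where 47.1% of all pairs of miRNAs with a mean count of at least 100 had separate ranges. The pairs share members, so their ratios are not separate results. The 5 include bta-miR-194 to bta-miR-215, where the gap between the diets was smaller than counting error. Over the ratios of 162 other miRNAs of that depth to a member, the share was 68.5% for bta-miR-122, 53.7% for bta-miR-192, 41.4% for bta-miR-194 and 38.9% for bta-miR-215. With 3 libraries against 3, the smallest p that the exact two-sided permutation test can give is 0.1, and those 5 pairs reached it (0.12 after adjustment over the 6 pairs), so none could pass 0.05. Counting error of a log2 ratio was at most 0.065 in any library, and it was at most 0.018 in pairs without bta-miR-215.

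The diets had separate ratios of bta-miR-192 to bta-miR-194, whose genes MIR192 and MIR194-2 lie side by side. The ratio of bta-miR-192 to bta-miR-194 was 6.22, 12.3 and 5.69 in grass-fed steers and 4.14, 2.90 and 3.72 in grain-fed steers 1 to 3. Every grass-fed ratio exceeded every grain-fed ratio, and grass-fed steer 2 was far above the rest. The difference of the mean log2 ratios was 1.10 ± 0.38 (SE), a 2.14-fold higher ratio in grass-fed liver, and it was 0.75 without grass-fed steer 2.

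The seed partners bta-miR-192 and bta-miR-215 had, within a diet, the least variable ratio of the pairs that involve bta-miR-192. There were 93.9, 109 and 84.9 counts of bta-miR-192 for each count of bta-miR-215 in grass-fed steers and 63.6, 46.6 and 58.4 in grain-fed steers 1 to 3. The groups were separate, with means of 95.8 ± 11.9 and 56.2 ± 8.70 (SD, n = 3 each). The difference on the log2 scale was 0.77 ± 0.17 (SE), and it ran from 0.65 to 0.87 when single libraries were dropped.

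The ratio of bta-miR-194 to bta-miR-215, which share a locus through MIR194-1, was 15.1, 8.80 and 14.9 in grass-fed steers and 15.3, 16.1 and 15.7 in grain-fed steers 1 to 3. The 3 grain-fed animals and 2 of the grass-fed animals were nearly level. Although the ranges do not overlap, the gap between 15.1 and 15.3 is smaller than the counting error of these ratios, and grass-fed steer 2 alone stands apart. The difference of the mean log2 ratios was -0.32 ± 0.26 (SE) with that library and -0.07 without it.

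bta-miR-122 exceeded bta-miR-194 by 24.3, 69.1 and 26.5 times in grass-fed steers and by 16.4, 12.7 and 8.43 times in grain-fed steers 1 to 3. Over bta-miR-215 the ratios were 366, 607 and 395 in grass-fed steers and 252, 205 and 132 in grain-fed steers 1 to 3. Both were separate between the diets, with log2 differences of 1.55 ± 0.56 and 1.23 ± 0.36 (SE). The ratio of bta-miR-122 to bta-miR-192 was 3.90, 5.60 and 4.65 in grass-fed steers and 3.96, 4.40 and 2.26 in grain-fed steers 1 to 3. These ranges overlapped, and the log2 difference of 0.45 ± 0.33 (SE) gave p = 0.3 in the exact permutation test, so the higher fold change of bta-miR-122 than of bta-miR-192 was not shown to differ from it. Without grain-fed steer 3 that log2 difference was 0.16.

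**Figure D4:**
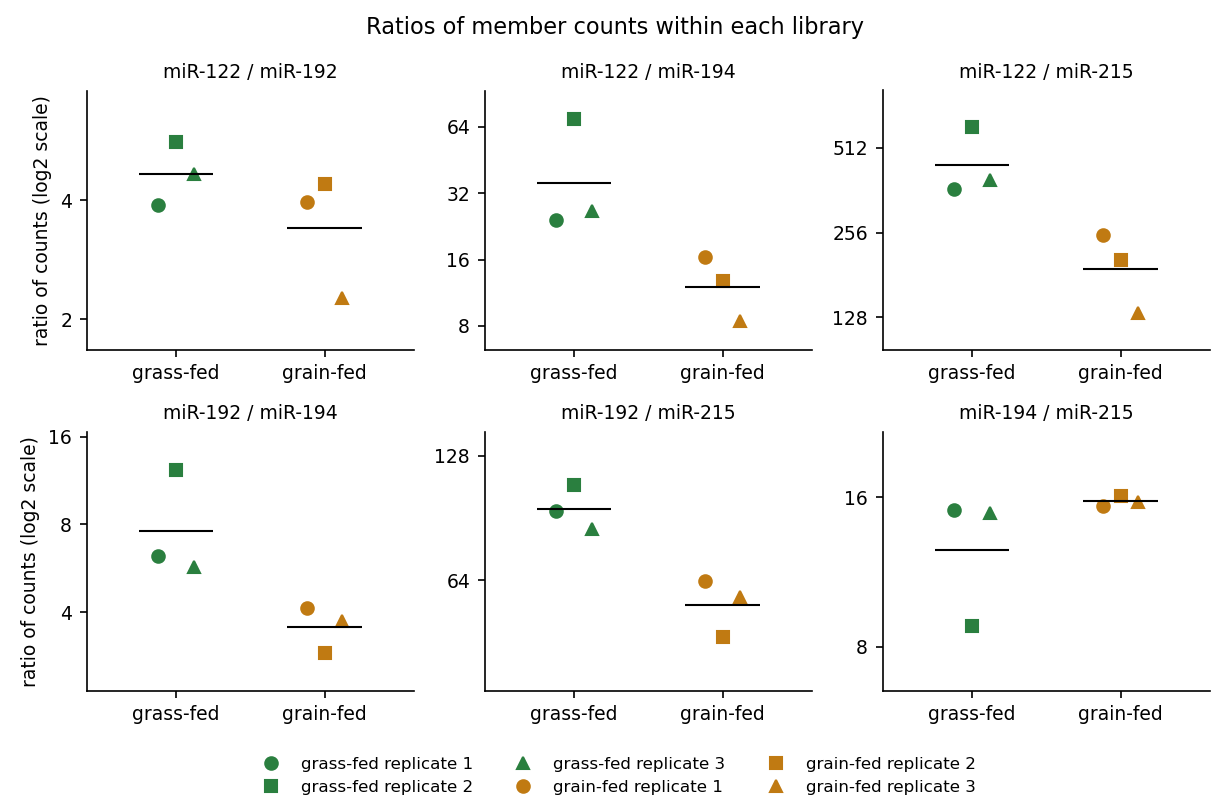
Ratio of the counts of 2 members in each library for the 6 pairs (log2 axes), 1 point per library, with a bar at the mean of the log2 ratios of each group. Grass-fed and grain-fed points are separate in every panel but that of miR-122 to miR-192, and in the panel of miR-194 to miR-215 only grass-fed steer 2 lies away from the others.

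The same ratios were tested in an edgeR quasi-likelihood fit over 455 miRNAs in which the count of bta-miR-192 took the place of the library size. Relative to bta-miR-192, bta-miR-194 fell in grass-fed liver (log2 fold change -1.03, SE 0.29, FDR = 0.0258, edgeR) and so did bta-miR-215 (-0.78, SE 0.23, FDR = 0.0331, edgeR). Both calls were lost without grain-fed steer 2, with FDR = 0.127 and 0.170 in edgeR. bta-miR-122 did not pass (0.41, SE 0.25, FDR = 0.278, edgeR). In that fit 27.5% of miRNAs were called and 26.6% were called lower, so a fall relative to bta-miR-192 was not rare. With bta-miR-194 as the reference instead, the log2 fold change between it and bta-miR-192 was of like size, -1.17, and was not called (FDR = 0.205, edgeR).

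Within the group of bta-miR-192, bta-miR-194 and bta-miR-215, the part taken by bta-miR-192 was 84.2% to 91.7% in grass-fed and 73.2% to 79.5% in grain-fed libraries. bta-miR-194 took 7.43% to 14.8% and 19.2% to 25.3%. bta-miR-215 stayed small, at 0.845% to 0.992% in grass-fed and 1.25% to 1.57% in grain-fed libraries. None of these ranges overlapped between the diets, and since the 3 parts add up to the whole they are not separate results. They restate the ratios above, and separate ratio ranges were common. Of all pairs of miRNAs with a mean count of at least 100, 47.1% had them, as did 53.7% of ratios to bta-miR-192 and 41.4% of ratios to bta-miR-194.

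Counts of bta-miR-194 are listed under both of its precursors and were of similar size under each, and the larger was used. The count under bta-mir-194-1 was 82.5%, 85.5% and 81.1% of the count under bta-mir-194-2 in grass-fed steers and 91.4%, 91.4% and 88.2% in grain-fed steers 1 to 3. The diets did not overlap in this share. This comparison was chosen after its values had been seen. Of 32 mature miRNAs with several precursors, unequal counts and a mean count of at least 100, 40.6% had a share of the lower to the higher precursor that did not overlap between the diets. Which locus gave the shared reads cannot be read from these counts.

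The miRNAs whose counts followed each member most closely were found by the SD over the 6 libraries of the log2 ratio to it, among 162 other miRNAs with a mean count of at least 100. This is a description over 6 libraries that share the diet, age and range of miRNA counts of their group. bta-miR-122 was followed most closely by bta-miR-423-5p (SD 0.19), bta-miR-200b (0.19) and bta-miR-145 (0.27), where the median SD was 0.64. bta-miR-192 was followed by bta-miR-199a-5p (0.09) and by bta-miR-199c and bta-miR-199a-3p (0.13 each), whose counts differ by at most 1 and share their reads, where the median SD was 0.42. bta-miR-194 was followed by bta-miR-17-5p (0.09), bta-miR-20a (0.14) and bta-miR-374a (0.17), with a median of 0.68. bta-miR-215 was followed by bta-miR-361, bta-miR-379 and bta-miR-374b (0.13, 0.13 and 0.14), with a median of 0.45.

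No member was among the 3 closest to another member. The neighbours bta-miR-192 and bta-miR-194 had a log2 ratio with an SD of 0.73. By this measure bta-miR-194 ranked 139 of 162 among the miRNAs that follow bta-miR-192. bta-miR-215 ranked 94 for bta-miR-192 and 17 for bta-miR-194. bta-miR-192 ranked 31 for bta-miR-122, the closest that any member came to bta-miR-122.

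Other miRNAs that are abundant or active in liver were set beside the members. Of the 20 on that list, 19 were tested, 2 were higher in grass-fed liver and none was lower in edgeR at FDR 0.1, beside 9.43% and 9.65% of all tested miRNAs. The 2 were bta-miR-365-3p, with 446 ± 107 CPM in grain-fed and 839 ± 288 CPM in grass-fed liver (log2 fold change 0.91, FDR = 0.0479, edgeR), and bta-miR-30c, with 1584 ± 304 and 2738 ± 71.7 CPM (0.79, FDR = 0.0203, edgeR; SD, n = 3 each). bta-miR-148a, which acts on the message of the LDL receptor, had a log2 fold change of 0.46 (FDR = 0.212, edgeR). bta-miR-885, another miRNA enriched in liver, had 76.3 ± 24.7 CPM in grass-fed and 56.7 ± 13.7 CPM in grain-fed liver (each SD, n = 3), with a log2 fold change of 0.41 (FDR = 0.453, edgeR). For bta-miR-101, also abundant, the log2 fold change was -0.03 (FDR = 0.934, edgeR).

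The median log2 fold change of this list was 0.35, against 0.13 over all tested miRNAs. bta-miR-33a, which sits in a gene of sterol regulation and acts on cholesterol export, had 11 counts over the grass-fed and 0 over the grain-fed libraries. A count of 0 allowed up to 1.31 CPM over the grain-fed group (3 counts), which is above the grass-fed level of 0.859 CPM, so no fold is given. With such miRNAs at their bound the medians were 0.28 for the list and 0.10 for all. Of the miRNAs known to act on the HNF4A message, bta-miR-24-3p (0.33, FDR = 0.336, edgeR) and bta-miR-34a (-0.25, FDR = 0.704, edgeR) were not called, and bta-miR-124a and bta-miR-124b did not reach the count filter.

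Whole liver also holds other cells, whose marker miRNAs are given here. Both miRNAs listed as hepatocyte markers, bta-miR-122 and bta-miR-885, were counted in every library. Of 6 mesenchymal markers, 3 were higher in grass-fed liver and none was lower at FDR 0.1, beside 9.43% and 9.65% of all tested miRNAs. They were bta-miR-145 (log2 fold change 1.09, FDR = 0.00597, edgeR), bta-miR-199a-3p (0.62, FDR = 0.0532, edgeR) and bta-miR-199a-5p (0.61, FDR = 0.0516, edgeR). Not called were bta-miR-143 (0.33), bta-miR-199b (0.33) and bta-miR-214 (0.03). The sum over the list, most of it bta-miR-143, was 80077 to 116241 CPM in grass-fed and 74026 to 86769 CPM in grain-fed liver. Among 6 biliary markers, bta-miR-200b was higher (1.11) and bta-miR-141 lower (-1.75) in edgeR at FDR 0.1, beside 9.43% and 9.65% of all tested miRNAs. Not called were bta-miR-200a (0.14), bta-miR-200c (0.50), bta-miR-429 (-0.41) and bta-miR-31 (-0.16). The biliary sums were 703 to 980 CPM in grass-fed and 554 to 831 CPM in grain-fed liver. Of 4 pancreas markers, bta-miR-216a, bta-miR-216b and bta-miR-217 were lower in grass-fed liver in edgeR at FDR 0.1, beside 9.65% of all tested miRNAs, with list sums of 32.3 to 36.0 CPM in grass-fed and 14.2 to 136 CPM in grain-fed liver, and bta-miR-216a was at 0 in all 3 grass-fed libraries. All 3 of these miRNAs were at 0 in grain-fed steer 3, so their groups overlapped. bta-miR-217 had 0.842, 0.236 and 1.05 CPM in grass-fed steers and 16.6, 43.9 and 0 CPM in grain-fed steers 1 to 3. Every value was far below those of the members. No marker passed among 2 of endothelium, 5 of leukocytes, 3 of erythroid cells and 3 of skeletal muscle. The leukocyte sums were 743 to 993 and 943 to 1132 CPM, those of endothelium 11449 to 16152 and 9476 to 14335 CPM, those of erythroid cells 419 to 643 and 465 to 665 CPM, and those of muscle 315 to 527 and 197 to 357 CPM, grass-fed first. The part of these cells in the differences of the members was not tested.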

How the data were processed

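Small RNA libraries from 6 livers, 1 library per steer, were compared by diet, with groups and replicate numbers from the sample labels. The authors trimmed adapters, dropped reads of low quality or unsuitable length, aligned the rest to ARS-UCD1.2 and obtained counts of known miRBase 22 miRNAs from miRDeep2 (version and settings not given in the sources used here). Processing notes by the submitters also name FastQC 0.11.5 and Trimmomatic 0.36. The deposited read counts are raw, on 1207 rows that each join a mature miRNA with 1 precursor. The deposited CPM column, these counts over their total, was left aside. Each mature miRNA was given its largest count over precursors, since reads that fit several are repeated.

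Detected miRNAs (over 2 counts in 2 or more libraries) entered the quasi-likelihood test of edgeR 4.0.16 (R 4.3.3), TMM scaling, Benjamini-Hochberg adjustment over all tested miRNAs and FDR 0.1. Standard errors (SE) were derived from the log2 fold change and its F statistic. Ratios of members were compared by exact permutation tests, and by an edgeR fit with the count of bta-miR-192 as library size. Alternatives were other scalings, filters, precursor sums or pairs, DESeq2 1.42.0, limma-voom 3.58.1, other edgeR tests, FDR 0.05, a replicate block and each library left out. The edgeR fits were run on simulated counts as a check of the code, which does not show how they perform on these libraries. The text names the members, the 3 miRNAs closest to each, a liver list, miRNAs acting on HNF4A and markers of biliary, mesenchymal, endothelial, leukocyte, erythroid, muscle and pancreas cells. The members and lists were chosen with earlier results of these data known. Replicates differed by more than sampling noise, and none was merged.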

Additional observations from a re-analysis of the deposited data

How the results depend on the processing

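bta-miR-122 was called in every alternative and whichever single library was dropped, with log2 fold changes of 0.67 to 1.27 over the alternatives and 0.85 to 1.19 without single libraries. The number of members called, 2, fell to 1 with total counts, where bta-miR-192 had 0.22, and lay between 1 and 2 without single libraries, where bta-miR-192 lay between 0.50 and 0.74, uncalled without grain-fed steer 1 or 2. bta-miR-194 was not called in any alternative and lay below 0 in all of them (-0.79 to -0.21). bta-miR-215 lay between -0.55 with total counts and 0.049 with upper-quartile scaling, where its sign turned, and between -0.36 and -0.10 without single libraries, and was not called in any of these. The number of miRNAs called over the whole table, 87, lay between 70 and 124 over the alternatives and between 49 and 86 without single libraries, 49 being without grain-fed steer 2. The cause of these losses was not tested. Relative to bta-miR-192, 125 miRNAs were called, 174 relative to bta-miR-122, 28 relative to bta-miR-194 and 65 relative to bta-miR-215, and 72 to 124 without single libraries, with 72 without grain-fed steer 2 and 79 without grain-fed steer 1. In that fit bta-miR-194 lay between -1.24 and -0.76 and bta-miR-215 between -0.87 and -0.64 without single libraries, and bta-miR-194 had -1.17, uncalled, when it was itself the reference. Ratios within the set were rerun with precursor sums, summed counts, the replicate block and single libraries left out, and none changed direction. The block cannot change a mean difference of log2 ratios, and precursor sums move only ratios with bta-miR-194, so these are no separate support. The ratio of bta-miR-194 to bta-miR-215 came to -0.07 without grass-fed steer 2.

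The replicate numbers are not stated to pair animals, and same-numbered libraries deviated from their group means with correlations of -0.05, -0.20 and -0.01 for numbers 1, 2 and 3. With the replicate number as a block, 82 miRNAs and 2 members were called, bta-miR-122 at 1.11 and bta-miR-192 at 0.65. Relative to bta-miR-192 the block left 87 miRNAs called, bta-miR-194 at -1.09 (called) and bta-miR-215 at -0.77 (uncalled, FDR = 0.113, edgeR). Among the members it changed no other call. With 3 libraries per group, precision is limited, and counting error was highest for bta-miR-215 in the shallow grain-fed libraries.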
